A study of Mus musculus with 6 samples.

Results

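A set of 9 enzymes and carriers that bring glutamine into the cell, turn it into alpha-ketoglutarate and supply or cleave citrate were followed in Neuro2a cells, a mouse neuroblastoma line, after an adenovirus had delivered a short hairpin RNA against Fam172a. The 9 genes were chosen by symbol from the 24421 gene rows of the count table: Slc1a5, Glul, Glud1, Got1, Got2, Gpt2, Idh1, Idh2 and Acly. The comparison has a knockdown and a control group. The shFam172a group (ADV-shFam172a, 3 libraries) and the shCtrl group (ADV-shCtrl, 3 libraries) were both infected with adenovirus for 48 h, carry the genotype label WT and grew on collagen I in DMEM with fetal bovine serum. Both therefore share the viral infection, and no uninfected cells were analysed here. The model is a single tumour line, the hairpin sequences were not used here, and the labels do not state that replicates are separate infections. The p-values then cover the spread among these libraries alone, and that spread may be technical.

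Glutamine enters many cells through the exchanger ASCT2, the product of Slc1a5, and glutaminase splits it into glutamate and ammonia. Glutamine synthetase (Glul) runs the opposite way and builds glutamine from glutamate. Glutamate gives its carbon skeleton to the tricarboxylic acid (TCA) cycle as alpha-ketoglutarate, either by oxidation through glutamate dehydrogenase (Glud1) or by passing its amino group to oxaloacetate (Got1 in the cytosol, Got2 in mitochondria) or to pyruvate (Gpt2 in mitochondria). The NADP-dependent isocitrate dehydrogenases (Idh1 in the cytosol, Idh2 in mitochondria) interconvert isocitrate and alpha-ketoglutarate, and ATP citrate lyase (Acly) cleaves cytosolic citrate into oxaloacetate and acetyl-CoA, which feeds lipid synthesis and protein acetylation.

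Of the 9 genes, 7 fell in the shFam172a cells, 1 rose and 1 did not pass the test. The genes that fell were Slc1a5, Glul, Glud1, Got1, Got2, Gpt2 and Idh1, the gene that rose was Acly, and Idh2 was not called. The changes were small. Mean levels in shFam172a ranged from 77.7% of the shCtrl mean for Glul to 114% for Acly. All 9 genes passed the filter on low counts, and in 8 of them the 3 shFam172a values did not overlap the 3 shCtrl values. Calls rest on edgeR's quasi-likelihood test over 12820 genes, with a Benjamini-Hochberg adjusted p below 0.05. By it 36.1% of all tested genes were called, 17.5% higher and 18.6% lower. Groups did not overlap in 46% of tested genes, 22.5% higher and 23.5% lower. DESeq2 called 28% of the genes it tested and gave the same counts for the 9 genes, 1 higher and 7 lower. All 9 genes are well expressed, the lowest with a mean of 89.3 CPM (counts scaled to library size), and calls are more frequent at such levels: among the 4974 tested genes with a mean of at least 50 CPM, a limit chosen after the values were seen, 53.3% were called, 25.1% higher and 28.2% lower. The median log2 fold change was -0.19 over the 9 genes and -0.00030 over all tested genes. The median size of the change was 0.21 among the 8 called genes of the group and 0.22 among all called genes. Among called genes with a mean of at least 50 CPM it was 0.175.

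**Figure D1:**
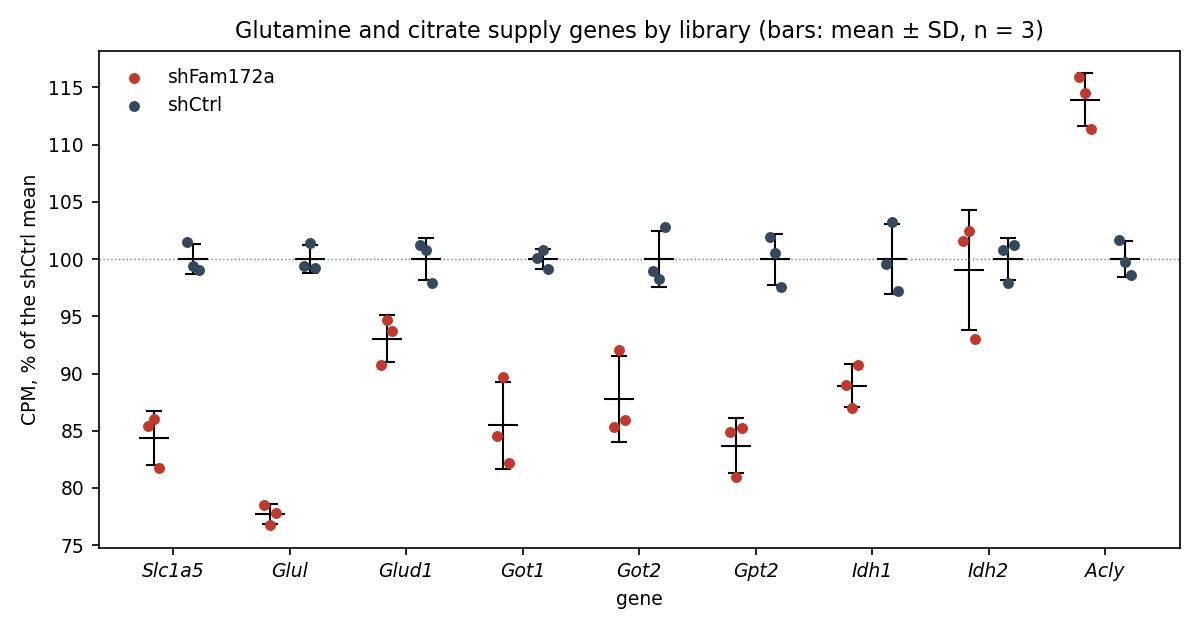
Level of each of the 9 genes in every library, as a percentage of the shCtrl mean of that gene (vertical axis, from scaled CPM), with shFam172a left of shCtrl; points are libraries and bars the mean ± SD, n = 3. The shFam172a libraries lie below the shCtrl libraries for 7 genes, above them for Acly, and overlap them for Idh2.

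Fam172a itself was measured at 9.22, 8.28 and 9.22 CPM in shFam172a and at 18.6, 19.3 and 19.5 CPM in shCtrl, so the targeted transcript was lower in every shFam172a library (log2 fold change -1.10 ± 0.092 SE, adjusted p = 2.4e-12, edgeR). Gene counts summed to between 21690467 and 23409319 in shFam172a and to between 11250312 and 12820531 in shCtrl, so depth goes with the group. With every library thinned to the smallest total, the 9 genes kept 1 call higher and 7 lower. The ribosomal RNA precursor Rn45s, chosen after its values were seen, averaged 985 ± 177 CPM in shFam172a and 492 ± 78.2 CPM in shCtrl (SD, n = 3 each), and its part in the results below was not tested. Fewer read pairs had too low an alignment quality in replicate 3 of shFam172a (4.46%) than in replicates 1 and 2 (6.65% and 7.12%), and without it the 9 genes again had 1 call higher and 7 lower. Markers of sympathoadrenal neuroblasts, the lineage of neuroblastoma, summed to 3583 to 3654 CPM in shFam172a and to 3530 to 3562 CPM in shCtrl, and 13 of 14 were tested, of which 7 rose and 2 fell, beside the 36.1% called among all tested genes. Single markers went further apart than the sums: Th averaged 18.7 ± 1.05 CPM in shFam172a and 9.28 ± 1.30 CPM in shCtrl, and Elavl4 averaged 214 ± 7.35 CPM in shFam172a and 303 ± 3.74 CPM in shCtrl (SD, n = 3 each). Both were chosen after their values were seen, and their part in the results below was not tested. In bulk RNA, fewer cells of a type and less RNA per cell cannot be told apart.

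Promoter windows were available in the RefSeq table (build GRCm38.p6) for 8 of the 9 genes, Slc1a5 being the exception, and Idh1 had an upstream and a downstream start. The 250 bases before the start site are printed for Glul, the gene with the largest decrease, for Got1, the gene with the most CCAAT boxes, and for Acly, the one gene that rose. They lie at chr1:153899679-153899928 (plus strand), chr19:43524606-43524855 (minus strand) and chr11:100528001-100528250 (minus strand), and run 5′ to 3′ toward the gene. Capitals mark CCAAT or its reverse ATTGG, and ACGTG or its reverse CACGT.
Glul: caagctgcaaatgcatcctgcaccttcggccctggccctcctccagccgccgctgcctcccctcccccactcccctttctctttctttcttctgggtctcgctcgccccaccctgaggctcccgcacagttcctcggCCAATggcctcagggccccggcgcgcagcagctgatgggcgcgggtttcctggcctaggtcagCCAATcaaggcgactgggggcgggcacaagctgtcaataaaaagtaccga
Got1: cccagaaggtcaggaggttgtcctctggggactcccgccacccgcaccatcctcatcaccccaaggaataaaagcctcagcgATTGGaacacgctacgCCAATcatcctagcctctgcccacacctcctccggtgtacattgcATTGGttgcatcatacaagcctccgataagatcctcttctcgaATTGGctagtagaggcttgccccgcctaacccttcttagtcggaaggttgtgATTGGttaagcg
Acly: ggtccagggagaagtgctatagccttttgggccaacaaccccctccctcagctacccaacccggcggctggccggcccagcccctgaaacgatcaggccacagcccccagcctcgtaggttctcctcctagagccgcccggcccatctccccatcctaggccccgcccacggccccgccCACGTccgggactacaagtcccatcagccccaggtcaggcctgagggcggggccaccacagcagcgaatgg

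The motif search covered both strands of 300 bases, 250 before the start and 50 after it. CCAAT, the box bound by the factor NF-Y, was found in the windows of 5 of 8 genes (Glul, Got1, Idh1, Idh2 and Acly), against 41.1% of 27025 symbols in the RefSeq table. Got1 had 6 matches, of which the last starts 30 bases after the start site, Glul had 2, and Acly had 1, at 38 bases after the start site. GGGCGG, the GC box bound by SP1, was found in 6 of 8 genes (all but Got1 and Got2), against 38.2% of symbols. ACGTG, a form of the core of the hypoxia response element, was found in Acly alone, starting 71 bases before the start site, against 21.8% of symbols. The other form of the core, GCGTG, was not part of the search, and its share of symbols was not counted. In the 250 bases before the start, GCGTG or its reverse CACGC occurs in Glud1, Got1, Got2, Idh2 and the downstream window of Idh1. Acly is therefore not the only gene with a form of this core. CACGTG, the E-box that contains ACGTG, was found in none of the 8 genes, against 8.09% of symbols. TGATGNAAN, the element bound by ATF4 dimers, was found once, in Got1, where it shares its outermost base with a CCAAT box, against 4.50% of symbols. These matches are letters in a window and say nothing about binding.

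Slc1a5 encodes ASCT2, a sodium-dependent exchanger of neutral amino acids and a main route of glutamine uptake in proliferating cells (ENSMUSG00000001918, chromosome 7, 16781340 to 16798274, plus strand, 9 merged exons; here and below GENCODE on GRCm38, the build that the submitters' processing notes call mm10). It was measured at 240.1, 242 and 229.6 CPM in shFam172a, against 285, 279 and 278 CPM in shCtrl. Every shFam172a library lay below every shCtrl library, and the distance between the groups exceeded the spread within either. The log2 fold change was -0.24 ± 0.030 (SE) with an adjusted p of 2.8e-08 in edgeR, and 11.2% of tested genes had a lower one.

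Slc1a5 works beside the LAT1 exchanger, which imports large neutral amino acids in return for glutamine and consists of the Slc7a5 and Slc3a2 chains. Slc7a5 averaged 750 ± 6.74 CPM in shFam172a and 894 ± 43.7 CPM in shCtrl (log2 fold change -0.25 ± 0.029, adjusted p = 3.8e-09, edgeR). Slc3a2 averaged 372 ± 13.7 CPM in shFam172a and 444 ± 7.52 CPM in shCtrl (log2 fold change -0.25 ± 0.029, adjusted p = 7e-09, edgeR). Both chains fell, by a fold close to that of Slc1a5. In the list of 17 other plasma membrane carriers of glutamine and glutamate, 11 were tested, 1 rose and 3 fell, and the median log2 fold change was -0.02. The carrier that rose was Slc38a5, a low transcript that averaged 2.58 ± 0.0911 CPM in shFam172a and 1.45 ± 0.0317 CPM in shCtrl (log2 fold change 0.82 ± 0.24, adjusted p = 0.0055, edgeR). Slc7a7, which also fell, is a light chain of the y+L exchanger and averaged 1.88 ± 0.258 CPM in shFam172a and 3.39 ± 0.342 CPM in shCtrl (log2 fold change -0.85 ± 0.21, adjusted p = 0.0014, edgeR), and 232 of its exon bases overlap Oxa1l on the other strand.

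Glul encodes glutamine synthetase, which joins ammonia to glutamate (ENSMUSG00000026473, chromosome 1, 153899944 to 153909723, plus strand, 10 merged exons). Its values were 81.8, 79.99 and 81.1 CPM in shFam172a, against 104, 106 and 103 CPM in shCtrl. The shFam172a libraries lay close together and well below the shCtrl libraries. Of the 9 genes Glul had the lowest log2 fold change, -0.36 ± 0.039 (adjusted p = 1.3e-09, edgeR), and 4.64% of all tested genes had a lower one. Against a fold of 1.2 in place of no change, edgeR called 3.46% of all tested genes, and Glul was the one gene of the 9 that passed (adjusted p = 0.043; over the other 17 alternatives its adjusted p lay between 1.7e-16 and 2.6e-07). The exons of Glul overlap those of Teddm2 and of the microRNA gene Mir8114, both with 0 counts in all 6 libraries. Of its 50-base windows, 14.2% also occur in another annotated gene, among them the pseudogene Glns-ps1. Read pairs with several alignments were counted in a row of their own, so pairs from these windows may have been left out.

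Gls2, the liver-type glutaminase, which carries out the reaction opposite to that of Glul, moved the other way. It had 29.1, 32.2 and 30.2 CPM in shFam172a, against 18.9, 20.4 and 19.9 CPM in shCtrl. Its lowest shFam172a library exceeded the highest shCtrl library, with a log2 fold change of 0.63 ± 0.070 (adjusted p = 3.8e-09, edgeR), and 97 of its exon bases overlap Spryd4 on the other strand.

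Gls2 was listed with the glutamine amidotransferases, enzymes that take the amide nitrogen of glutamine for nucleotides, asparagine and amino sugars. Of these 12 genes, all tested, 1 rose and 6 fell, and the median log2 fold change was -0.09. The one that rose was Gls2. Ctps, a CTP synthase, averaged 86.8 ± 4.51 CPM in shFam172a and 96.8 ± 2.97 CPM in shCtrl (log2 fold change -0.16 ± 0.042, adjusted p = 0.0033, edgeR). Gmps, which makes GMP, averaged 209 ± 7.72 CPM in shFam172a and 226 ± 1.59 CPM in shCtrl (log2 fold change -0.11 ± 0.032, adjusted p = 0.0045, edgeR). Cad, which starts pyrimidine synthesis, averaged 193 ± 5.41 CPM in shFam172a and 209 ± 4.81 CPM in shCtrl (log2 fold change -0.11 ± 0.032, adjusted p = 0.0049, edgeR). The call of Cad was lost without shCtrl replicate 3 (adjusted p = 0.051), while with the length and GC offset its log2 fold change was -0.19, and the call of Gmps was lost without shFam172a replicate 1 (adjusted p = 0.057).

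Glud1 encodes glutamate dehydrogenase, the mitochondrial enzyme that oxidises glutamate to alpha-ketoglutarate and ammonia (ENSMUSG00000021794, chromosome 14, 34310727 to 34345265, plus strand, 15 merged exons). It had 142, 148 and 147 CPM in shFam172a, against 159, 158 and 154 CPM in shCtrl. The groups did not overlap, but the highest shFam172a value and the lowest shCtrl value were close. Of the 7 genes that fell, Glud1 changed least (log2 fold change -0.10 ± 0.034, adjusted p = 0.014, edgeR), and 29.8% of tested genes had a lower log2 fold change. The call depended on single libraries: the adjusted p was 0.077 without shFam172a replicate 1, 0.052 without shCtrl replicate 1 and 0.057 without shCtrl replicate 2, within a range of 0.0078 to 0.077 over the 17 alternatives that test against no change. In 8.17% of its 50-base windows the sequence also occurs in another annotated gene, such as the pseudogene Glud-ps.

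The 3 aminotransferases all fell. Got1, the cytosolic aspartate aminotransferase of the malate-aspartate shuttle (ENSMUSG00000025190, chromosome 19, 43499752 to 43524605, minus strand, 9 merged exons), had 113, 119.8 and 109.8 CPM in shFam172a, against 134, 135 and 132 CPM in shCtrl. The shFam172a libraries were all lower and more spread than the tightly grouped shCtrl libraries. Its log2 fold change was -0.23 ± 0.037 (adjusted p = 6.8e-06, edgeR).

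Got2, the mitochondrial partner enzyme of Got1 in the same shuttle (ENSMUSG00000031672, chromosome 8, 95864134 to 95888547, minus strand, 11 merged exons), had 698, 753 and 702 CPM in shFam172a, against 809, 803 and 840.1 CPM in shCtrl. Again every shFam172a library was lower, with replicate 2 nearest to the shCtrl libraries. The log2 fold change was -0.19 ± 0.029 (adjusted p = 1.8e-06, edgeR). Of the 50-base windows of Got2, 32.3% also occur in another annotated gene, chiefly the pseudogene Got2-ps1, the largest such share among the 9 genes, and so its level is uncertain. Read pairs with several alignments made up 9.99% to 10.4% of the counts summed over all rows in shFam172a and 9.58% to 9.71% in shCtrl. Their part in the Got2 result was not tested.

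Gpt2, the mitochondrial alanine aminotransferase (ENSMUSG00000031700, chromosome 8, 85492576 to 85527560, plus strand, 12 merged exons), had 82.6, 78.7 and 82.9 CPM in shFam172a, against 99.1, 97.8 and 94.9 CPM in shCtrl. The groups were apart by more than the spread within either. Its log2 fold change was -0.26 ± 0.041 (adjusted p = 3.1e-06, edgeR), second to that of Glul among the genes that fell, and 10.1% of tested genes had a lower one.

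In the list of 11 other aminotransferases, 7 were tested, 1 fell and none rose, and the median log2 fold change was -0.09. The one that fell was Psat1, the phosphoserine aminotransferase of serine synthesis, which also turns glutamate into alpha-ketoglutarate. It averaged 428 ± 5.97 CPM in shFam172a and 471 ± 3.996 CPM in shCtrl (log2 fold change -0.14 ± 0.027, adjusted p = 8.5e-05, edgeR). Among the 12 tested genes that lead glutamate to proline, ornithine, glutathione and GABA or back, 1 rose and 4 fell, and the median log2 fold change was -0.0016. Abat, the GABA aminotransferase, averaged 79.7 ± 2.27 CPM in shFam172a and 99.6 ± 0.574 CPM in shCtrl (log2 fold change -0.32 ± 0.040, adjusted p = 3.6e-08, edgeR). Aldh4a1, which returns proline carbon to glutamate, averaged 12.1 ± 1.12 CPM in shFam172a and 17.01 ± 1.79 CPM in shCtrl (log2 fold change -0.49 ± 0.095, adjusted p = 8e-05, edgeR). Aldh18a1, which starts proline synthesis from glutamate, averaged 229 ± 2.71 CPM in shFam172a and 261 ± 7.88 CPM in shCtrl (log2 fold change -0.19 ± 0.030, adjusted p = 4.8e-06, edgeR). The fourth gene that fell was Pycrl, a pyrroline-5-carboxylate reductase (log2 fold change -0.19 ± 0.057, adjusted p = 0.0092, edgeR), whose call was lost without shCtrl replicate 2 (adjusted p = 0.11) and with DESeq2 (0.053). The gene that rose, Gclc, the catalytic chain of the first enzyme of glutathione synthesis, was named after its values were seen (log2 fold change 0.11 ± 0.036, adjusted p = 0.017, edgeR).

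The NADP-dependent isocitrate dehydrogenases differed in whether they passed the test. Idh1, the cytosolic enzyme and a source of NADPH (ENSMUSG00000025950, chromosome 1, 65158616 to 65186500, minus strand, 13 merged exons), had 191, 187 and 195 CPM in shFam172a, against 214, 222 and 209 CPM in shCtrl. All shFam172a libraries were lower, and the log2 fold change was -0.17 ± 0.032 (adjusted p = 4.6e-05, edgeR). With an offset for exon length and GC content it was -0.11 (adjusted p = 0.0029, the highest over the 17 alternatives that test against no change, whose lowest was 6.2e-06). Idh2, the mitochondrial enzyme (ENSMUSG00000030541, chromosome 7, 80094846 to 80115392, minus strand, 9 merged exons), had 153, 155 and 140.3 CPM in shFam172a, against 152, 148 and 153 CPM in shCtrl. Here the groups overlapped, with shFam172a replicate 3 the lowest of the 6 libraries and replicate 2 the highest. The log2 fold change of Idh2 was -0.01 ± 0.037 (adjusted p = 0.81, edgeR), and the 95% interval of the fold ran from 0.943 to 1.04.

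The paired enzymes of cytosol and mitochondria were set against each other by their ratios per kilobase within a library, which do not depend on scaling. With 3 libraries against 3, the two-sided exact permutation test cannot go below p = 0.1, so no call was possible for either ratio. The Idh1 to Idh2 ratio averaged 1.199 ± 0.0888 in shFam172a and 1.33 ± 0.0648 in shCtrl (SD, n = 3 each), a log2 difference of -0.15 ± 0.073 (SE), and the groups overlapped. The exact permutation test gave p = 0.2. The Got1 to Got2 ratio averaged 0.302 ± 0.00517 in shFam172a and 0.311 ± 0.0101 in shCtrl (SD, n = 3 each), a log2 difference of -0.04 ± 0.031, with p = 0.3 in the same exact permutation test. Idh1 passed the test across genes and Idh2 did not, but a difference between their changes was not shown.

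Acly, the enzyme that turns exported citrate into cytosolic acetyl-CoA (ENSMUSG00000020917, chromosome 11, 100476353 to 100528000, minus strand, 30 merged exons), was the one gene of the 9 that rose. It had 1810.4, 1789 and 1740.1 CPM in shFam172a, against 1588, 1559 and 1540.1 CPM in shCtrl. The lowest shFam172a library stood above the highest shCtrl library by more than the range within either group. The log2 fold change was 0.19 ± 0.025 (adjusted p = 1.3e-07, edgeR), and 81.2% of tested genes had a lower one. None of its exons overlap another gene, and none of its 50-base windows occur elsewhere in the annotated transcripts.

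**Figure D2:**
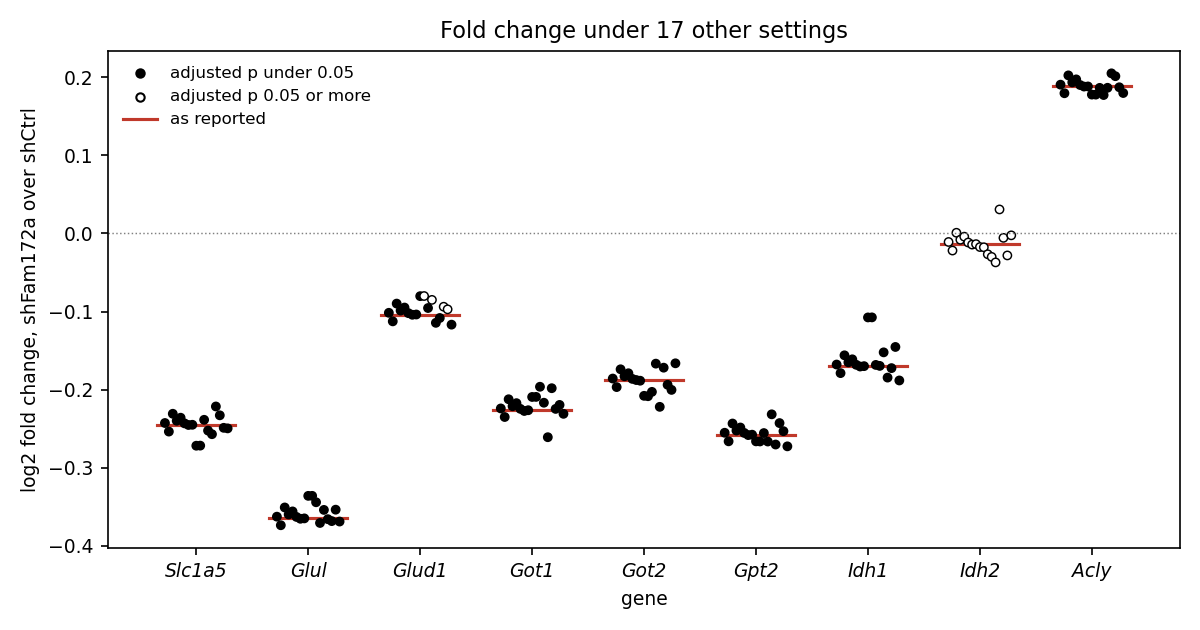
Log2 fold change (shFam172a over shCtrl, vertical axis) of each of the 9 genes under 17 other settings of scaling, filter, tool, depth and left-out library. Filled points have an adjusted p under 0.05, and the red line is the value as reported. Acly stays above zero and 7 genes stay below it throughout, Idh2 lies on both sides, and Glud1 has open points under 4 settings.

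The steps around Acly did not all move with it. Slc25a1, the carrier that exports citrate from mitochondria, had 136, 133 and 130.1 CPM in shFam172a, against 134, 126 and 131 CPM in shCtrl (log2 fold change 0.02 ± 0.036, adjusted p = 0.64, edgeR). Cs, the citrate synthase, averaged 483 ± 4.96 CPM in shFam172a and 487 ± 7.65 CPM in shCtrl (log2 fold change -0.01 ± 0.027, adjusted p = 0.74, edgeR). The groups of both genes overlapped. Acss2, which makes cytosolic acetyl-CoA from acetate, had 94.6, 101 and 93.2 CPM in shFam172a, against 70.5, 60.3 and 69.2 CPM in shCtrl. All shFam172a libraries were higher (log2 fold change 0.53 ± 0.048, adjusted p = 1.7e-11, edgeR), and exon bases of Acss2 overlap Ggt7, Gss and Acss2os on the other strand. Fasn, the fatty acid synthase that uses this acetyl-CoA, averaged 779.7 ± 7.67 CPM in shFam172a and 811 ± 16.8 CPM in shCtrl (log2 fold change -0.06 ± 0.026, adjusted p = 0.087, edgeR). Fasn was called lower under 5 of the 17 alternatives, with a log2 fold change of -0.15 under the length and GC offset (adjusted p = 9.5e-07).

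In the list of 11 cytosolic citrate, malate, NADPH and acetyl-CoA enzymes, all were tested, 3 rose and 2 fell, and the median log2 fold change was 0.0031. Beside Acss2, the genes that rose were the dehydrogenases of the pentose phosphate pathway. Pgd averaged 235 ± 4.36 CPM in shFam172a and 204 ± 13.0 CPM in shCtrl (log2 fold change 0.20 ± 0.035, adjusted p = 1e-05, edgeR). G6pdx averaged 227 ± 3.51 CPM in shFam172a and 204 ± 3.24 CPM in shCtrl (log2 fold change 0.15 ± 0.031, adjusted p = 0.00012, edgeR), and overlaps Ikbkg on the other strand. Acacb, the mitochondrial-membrane acetyl-CoA carboxylase, fell (log2 fold change -0.37 ± 0.12, adjusted p = 0.015, edgeR), but its call was lost without shFam172a replicate 1 (adjusted p = 0.057), without shCtrl replicate 2 (0.16) and with DESeq2 (0.073). The other gene that fell, Mdh1, the cytosolic malate dehydrogenase of the shuttle that Got1 belongs to, was named after its values were seen (log2 fold change -0.08 ± 0.029, adjusted p = 0.019, edgeR).

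Of 8 tested mitochondrial carriers of glutamate, malate, citrate and pyruvate, 1 rose and 2 fell, and the median log2 fold change was 0.01. Slc25a22, a glutamate carrier, averaged 47.1 ± 1.87 CPM in shFam172a and 41.0 ± 2.70 CPM in shCtrl (log2 fold change 0.20 ± 0.055, adjusted p = 0.004, edgeR). Slc25a10, the dicarboxylate carrier, averaged 27.2 ± 0.968 CPM in shFam172a and 34.8 ± 0.792 CPM in shCtrl (log2 fold change -0.35 ± 0.062, adjusted p = 1.7e-05, edgeR). Mpc2, a chain of the pyruvate carrier, averaged 35.2 ± 1.05 CPM in shFam172a and 40.6 ± 2.05 CPM in shCtrl (log2 fold change -0.20 ± 0.057, adjusted p = 0.0045, edgeR), and its call was lost without shCtrl replicate 3 (0.055).

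The TCA cycle, which takes up the alpha-ketoglutarate made by these enzymes, held 21 tested genes with its anaplerotic enzymes, of which 4 rose and 11 fell, and the median log2 fold change was -0.07. The lowest adjusted p belonged to Suclg2, the GTP-forming chain of succinyl-CoA synthetase, which averaged 96.4 ± 1.33 CPM in shFam172a and 123 ± 5.14 CPM in shCtrl (log2 fold change -0.36 ± 0.038, adjusted p = 1.4e-09, edgeR). Mdh2, the mitochondrial malate dehydrogenase, averaged 276 ± 6.88 CPM in shFam172a and 329 ± 4.35 CPM in shCtrl (log2 fold change -0.25 ± 0.029, adjusted p = 8.2e-09, edgeR). Ogdh, the alpha-ketoglutarate dehydrogenase, averaged 173 ± 3.92 CPM in shFam172a and 208 ± 5.87 CPM in shCtrl (log2 fold change -0.27 ± 0.032, adjusted p = 1.6e-08, edgeR). Sdhb, the iron-sulfur chain of succinate dehydrogenase, fell as well (log2 fold change -0.23 ± 0.029, adjusted p = 4.7e-08, edgeR). The 4 genes that rose, named after their values were seen, were Me2, Ogdhl, Pcx and Sdhd, with log2 fold changes of 0.12 to 0.23. Among them Pcx encodes pyruvate carboxylase, which supplies oxaloacetate from pyruvate, and Me2 a mitochondrial malic enzyme.

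Over all 7 lists, 82 of the 96 genes were tested, 11 rose and 29 fell, so that 48.8% were called, and the median log2 fold change was -0.06. The corresponding share among all tested genes was 36.1%, and among those with at least 50 CPM 53.3%. With both directions pooled, the share of calls over the lists lies between these background shares. By direction the calls leaned lower, 29 against 11. Among all tested genes 17.5% were higher and 18.6% lower, and among those with at least 50 CPM 25.1% and 28.2%. This lean was not tested. The same background shares stand beside the counts of each list above.

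**Figure D3:**
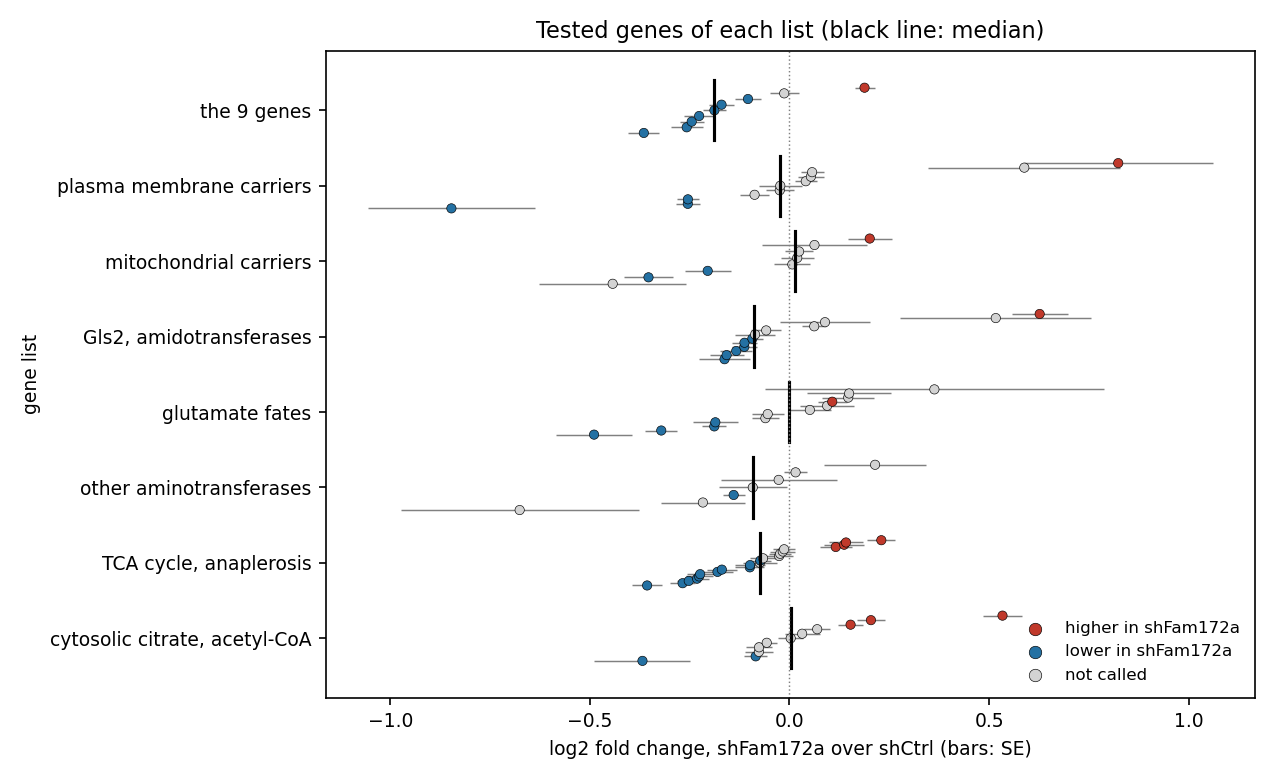
Log2 fold change (shFam172a over shCtrl) with its SE for each tested gene of the 7 pathway lists and the 9 genes themselves; the black line in each list is its median. The medians of the lists lie between -0.09 and 0.01, and that of the 9 genes at -0.19. Among called genes, Slc38a5, Gls2 and Acss2 stand furthest to the higher side and Slc7a7 furthest to the lower side.

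Levels were compared between genes per kilobase of merged exons. In shFam172a the order was Acly at 337 ± 6.83, Got2 at 149 ± 6.34, Idh1 at 69.0 ± 1.46, Idh2 at 57.7 ± 3.04, Slc1a5 at 56.8 ± 1.57, Got1 at 45.0 ± 2.01, Glud1 at 34.7 ± 0.755, Glul at 24.4 ± 0.275 and Gpt2 at 14.4 ± 0.410 CPM per kilobase (SD, n = 3). Idh2 and Slc1a5 overlapped in shFam172a, and all other neighbours in that order were apart. In shCtrl the order was Acly at 296 ± 4.57, Got2 at 169 ± 4.11, Idh1 at 77.6 ± 2.37, Slc1a5 at 67.3 ± 0.886, Idh2 at 58.3 ± 1.06, Got1 at 52.6 ± 0.459, Glud1 at 37.2 ± 0.680, Glul at 31.4 ± 0.388 and Gpt2 at 17.2 ± 0.383 CPM per kilobase (SD, n = 3). There all neighbours were apart. Acly and Got2 were thus the most abundant transcripts of the 9 in both groups. Slc1a5 lay above Idh2 in shCtrl and overlapped it in shFam172a. The order of Slc1a5, Idh1 and Idh2 depended on the length used: with the longest coding transcript Slc1a5 came first of these 3, at 85.8 CPM per kilobase in shFam172a and 102 in shCtrl.

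**Figure D4:**
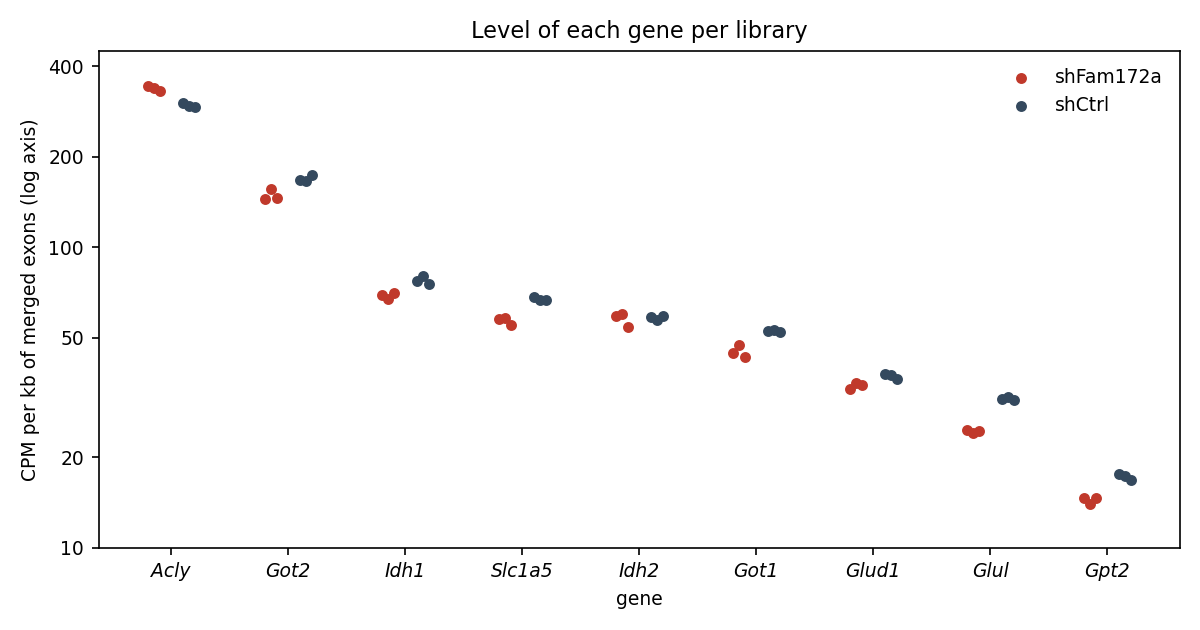
Level of each gene in CPM per kilobase of merged exons (log axis) in each shFam172a and shCtrl library, with shFam172a left of shCtrl. The levels span from 14.4 for Gpt2 to 337 for Acly in the shFam172a means and from 17.2 to 296 in the shCtrl means.

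For each of the 9 genes, the other gene with the most similar profile was sought among 9136 named genes with a mean of at least 10 CPM, by the root-mean-square distance of centred log2 CPM over the 6 libraries. Since 3 of the 6 libraries belong to each group, this measure follows the group difference first and is given without a test. Slc1a5 was nearest to Slc3a2, at a distance of 0.0142 log2 units. Glul was nearest to Mrto4 (0.0168), Glud1 to Nup93 (0.00905), Got1 to Rps13 (0.0106), Got2 to Ybx3 (0.0188) and Gpt2 to Cdk2 (0.00936). Idh1 was nearest to Ccnh (0.0121), Idh2 to Cnpy2 (0.0108) and Acly to C1ql1 (0.0106). Among the 9 genes the nearest pair was Slc1a5 and Got1, at 0.0269, and the most distant was Glul and Acly, at 0.276.

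Markers of other cell types that could carry glutamine enzymes were near the limit of detection. The 8 astrocyte markers, of which Glul is a classical companion in brain, summed to 12.9 to 14.7 CPM in shFam172a and to 13.2 to 15.9 CPM in shCtrl, with Aqp4 and Gja1 at 0 in all libraries and no marker called; its Slc1a2 and Slc1a3 are also in the carrier list. The 6 oligodendrocyte markers summed to 22.3 to 26.4 CPM in shFam172a and to 22.2 to 22.9 CPM in shCtrl, with Mag, Olig1 and Olig2 at 0. The 6 fibroblast markers summed to 4.68 to 6.22 CPM in shFam172a and to 6.11 to 6.85 CPM in shCtrl. The 4 endothelial markers summed to 15.6 to 16.8 CPM in shFam172a and to 14.4 to 16.4 CPM in shCtrl. Only 2 astrocyte, 2 oligodendrocyte, 3 fibroblast and 2 endothelial markers passed the filter on low counts and were tested. None of those tested was called, and the others could not be. The 6 macrophage markers summed to 1.11 to 1.16 CPM in shFam172a and to 0.234 to 0.943 CPM in shCtrl, with Ptprc and Cx3cr1 at 0. Cd68, the 1 macrophage marker tested, was called higher, just under the threshold (adjusted p = 0.048, edgeR). The call rests on few counts: 24, 21 and 23 in shFam172a and 7, 3 and 8 in shCtrl.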

How the data were processed

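RNA-seq of 6 Neuro2a libraries, 3 of shFam172a and 3 of shCtrl, was used as deposited. The deposited values are raw read counts per gene symbol; the submitters' processing notes name HISAT2 2.0.5, HTSeq and mm10. No source used here gives the annotation or whether counting used strand, so a gene and an overlapping gene on the other strand cannot be told apart. The single-sample tables equal the series table. The 5 rows that name no gene were left out. Of the counts summed over all rows, pairs in no gene averaged 17.4% in shFam172a and 16.5% in shCtrl. Pairs with several alignments averaged 10.3% in shFam172a and 9.64% in shCtrl.

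Genes were filtered by filterByExpr (12820 of 18128 with any count), scaled by TMM and tested, two-sided, with edgeR 4.0.16 (R 4.3.3), fitting group alone, and Benjamini-Hochberg adjustment over all 12820 genes. Log2 fold changes are shFam172a over shCtrl, and the SE is their size divided by the square root of F. CPM are TMM-scaled. Alternatives were other scalings, filters, DESeq2 1.42.0, limma 3.58.1, a length and GC offset, thinning, a test against 1.2-fold, a replicate block and leaving out each library. Exons and shared 50-base windows come from GENCODE M21 on GRCm38, the sequences from RefSeq. The test was also run on counts simulated with the means and dispersions fitted to these same libraries. Such counts cannot show how the test behaves if replicates are technical.

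The genes, the pathway lists and the rule for naming genes were chosen with earlier results of these data known. In each list the up to 4 called genes of lowest adjusted p were named, with Gls2, Cs, Slc25a1, Acss2 and Fasn in any case. A gene of the pathway lists is not reported here and was left out of their counts.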

Additional observations from a re-analysis of the deposited data

How the results depend on the processing

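Under 17 alternatives that test against no change, Slc1a5, Glul, Got1, Got2, Gpt2, Idh1 and Acly kept their direction and their call, although Idh1 moved by over 1.5 times, to -0.11, with the length and GC offset, with or without the block. Glud1 lost its call under 4, including the replicate block with the length and GC offset (adjusted p = 0.051). Tested against a fold of 1.2, edgeR called 0 of the 9 genes higher and 1 lower, and 2 pathway genes higher and 1 lower; that question is stricter by construction, and over all genes it called 307 higher and 136 lower. With 1 library left out, 1 of the 9 genes was called higher and 6 to 7 lower, and 9 to 14 pathway genes were higher and 21 to 28 lower. The log2 fold change of Fam172a then lay between -1.13 and -1.05. The log2 difference between the groups then lay between -0.21 and -0.11 for the Idh1 to Idh2 ratio. For the Got1 to Got2 ratio it lay between -0.06 and -0.02. Some values near 0 turned their sign, none of them called. With thinned libraries the log2 difference of the Got1 to Got2 ratio between the groups was 0.0068 (exact permutation p = 0.9). With upper-quartile factors the log2 fold change was 0.00080 for Idh2 and 0.00073 for Cs. With the length and GC offset that of Slc25a1 was -0.0016, and with the replicate block added -0.0017. With 1 library left out, Idh2 ranged from -0.037 to 0.031 (highest without shFam172a replicate 3), Slc25a1 from -9.4e-05 to 0.046 (lowest without shCtrl replicate 2) and Cs from -0.021 to 0.00089 (highest without shCtrl replicate 3). The cause of these turns was not tested. Fasn gained a call under 5 alternatives: library totals (adjusted p = 0.045), the length and GC offset (9.5e-07), that offset with the replicate block (2.3e-07), thinned libraries (0.041) and without shCtrl replicate 2 (0.045).

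No pairing by replicate number showed in the values: the correlations of same-numbered samples across the groups were -0.0054, -0.0038 and -0.0096. The labels do not state whether same-numbered samples were handled together. With the replicate block 1 of the 9 genes was higher and 7 were lower, and 12 pathway genes were higher and 28 lower; with the length and GC offset as well, 1 and 6 of the 9 genes were. Low genes rest on few counts: Slc38a5 had 55 to 61 counts in shFam172a and 16 to 19 in shCtrl. With 3 libraries a group, the exact permutation test of a ratio cannot pass the threshold.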
